A study of Rattus norvegicus with 6 samples.

Results

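The 9 genes described here were taken from the deposited table by symbol: the platelet-derived growth factor (PDGF) receptor genes Pdgfra and Pdgfrb, the ligand genes Pdgfa, Pdgfb, Pdgfc and Pdgfd, and Cspg4, Thy1 and Ddr2, which encode surface proteins of pericytes and other stromal cells. All 9 of 9 were among the 17089 genes listed and all 9 were among the 11230 that averaged 10 or more normalized counts and were tested. The cells were primary ventricular myocytes of newborn Sprague Dawley rats, isolated at postnatal day 1 to 3, a preparation known as neonatal rat ventricular myocytes. On the day of isolation 3 cultures received an adenovirus with GFP (Ad-GFP, called GFP below) and 3 an adenovirus with the T-box transcription factor Tbx18 and, behind an internal ribosome entry site, GFP (Ad-Tbx18-IRES-GFP, called Tbx18 below). RNA was taken on day 4 after gene transfer, and the study compared the groups to describe Tbx18-induced pacemaker cells. The names of all 6 libraries, in both groups, also carry the words unpace and Control. Both groups were thus exposed to adenovirus and GFP, and both were grown on fibronectin in 10% fetal bovine serum for the first 2 days and in 2% from day 3. Serum is a natural source of PDGF. The labels give no step that removes non-muscle cells, no promoter of the transgene, and no word on whether replicates were separate isolations. The p-values therefore reflect the spread among these 6 libraries alone, and that spread may be technical.

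PDGFs are secreted as dimers and act on 2 receptor tyrosine kinases. PDGF-A chains bind mainly the alpha receptor, PDGF-B chains bind both receptors, and PDGF-C and PDGF-D are made as latent proteins that proteases must cut before they bind. In the heart the alpha receptor marks fibroblasts and their epicardial precursors, while the beta receptor marks pericytes and vascular smooth muscle cells, which are drawn to vessels by PDGF-B from endothelium. Cspg4 encodes the proteoglycan NG2, a pericyte surface protein that can bind PDGF-A, Thy1 a small membrane-anchored glycoprotein of fibroblasts and neurons, and Ddr2 a receptor kinase for fibrillar collagen. Tbx18 is itself a gene of the epicardium and of mural cells.

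The stretches of 250 bases before the start of the alpha receptor gene and of the 4 ligand genes are shown because some of these genes rose and others did not. They are from RefSeq, build GRCr8, 1 start per gene, written 5′ to 3′ on the gene's strand. Capitals mark matches to the motifs searched on both strands.
Pdgfra chr14:33408517-33408766 (minus strand): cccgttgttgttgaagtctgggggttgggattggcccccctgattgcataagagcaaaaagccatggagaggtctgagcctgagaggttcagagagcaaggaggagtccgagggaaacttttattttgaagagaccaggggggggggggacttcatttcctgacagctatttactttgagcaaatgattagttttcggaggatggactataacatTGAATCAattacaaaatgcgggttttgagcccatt
Pdgfb chr7:113438344-113438593 (minus strand): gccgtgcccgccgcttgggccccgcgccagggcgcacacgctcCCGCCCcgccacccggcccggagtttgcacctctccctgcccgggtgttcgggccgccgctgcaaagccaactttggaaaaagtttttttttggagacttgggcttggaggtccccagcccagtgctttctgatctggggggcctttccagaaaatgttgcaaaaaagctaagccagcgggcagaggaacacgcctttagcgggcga
Pdgfd chr8:11773258-11773507 (plus strand): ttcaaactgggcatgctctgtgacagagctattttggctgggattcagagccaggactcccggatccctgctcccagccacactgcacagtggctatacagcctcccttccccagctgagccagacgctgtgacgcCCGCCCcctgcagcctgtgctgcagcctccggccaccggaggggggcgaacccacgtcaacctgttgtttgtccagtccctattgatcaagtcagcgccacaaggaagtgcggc
Pdgfa chr12:20759116-20759365 (plus strand): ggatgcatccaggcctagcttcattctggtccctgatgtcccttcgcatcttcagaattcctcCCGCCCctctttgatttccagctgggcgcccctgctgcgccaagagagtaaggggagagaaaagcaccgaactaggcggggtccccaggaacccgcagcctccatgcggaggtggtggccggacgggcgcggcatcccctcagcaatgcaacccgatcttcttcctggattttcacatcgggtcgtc
Pdgfc chr2:168614918-168615167 (plus strand): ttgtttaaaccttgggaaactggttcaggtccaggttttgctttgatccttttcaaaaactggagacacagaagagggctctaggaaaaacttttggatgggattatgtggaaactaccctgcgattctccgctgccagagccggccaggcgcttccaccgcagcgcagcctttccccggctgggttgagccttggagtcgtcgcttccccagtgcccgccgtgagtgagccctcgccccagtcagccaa
The T-box half-site GGTGTGA, searched because the vector carried a T-box factor, was found in none of the 5, and 3.22% of 33469 promoter stretches of the same length held it. A GC box, GGGCGG, was found once each in those of Pdgfb, Pdgfd and Pdgfa, the first 2 of which rose while Pdgfa did not pass the test, and 30.5% of all stretches held one. The stretch of Pdgfra held 1 match to the AP-1 motif TGANTCA, 35 bases before the start and read on both strands, which 6.34% of all stretches held. GGAATG, bound by TEAD factors, and the TATA box TATAAA were found in none of the 5 and in 12.1% and 12.9% of all. GC made up 63.6% of the bases for Pdgfb, 61.6% for Pdgfd, 60.8% for Pdgfa, 56% for Pdgfc and 47.2% for Pdgfra, against a median of 51.2%. The stretch of Cspg4 held 2 GC boxes and no other match. A match is a match of letters, not evidence of binding.

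The libraries held 17074483 to 19800300 gene reads, and the 9 genes had between 45 and 8482 reads in a library. Normalized counts of Tbx18 ran from 268 to 312 in GFP and from 5937 to 6236 in Tbx18, so each library matched its label. A normalized count is a read count divided by the size factor of its library. Differences were tested with limma on log2(normalized count + 1), p-values were adjusted by the Benjamini-Hochberg method over all 11230 genes, and a gene with an adjusted p under 0.05 was called. Of all genes tested, 46.0% were called, 22.5% higher and 23.5% lower in Tbx18.

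Of the 9 genes, 6 were called higher in Tbx18 and 0 lower, and 3 were not called. At an unadjusted p under 0.05 limma gave the same 6 and 0, and edgeR and DESeq2 on recovered reads also called 6 higher and 0 lower. The 6 were both receptor genes, the ligand genes Pdgfb and Pdgfd, and Thy1 and Ddr2, and in each of them all 3 Tbx18 libraries lay above all 3 GFP libraries, as they did for 28.6% of the genes tested. Pdgfa, Pdgfc and Cspg4 were not called, and their groups overlapped. A rise of at least 2-fold on the log2 scale was reached by 5 of the 9, all of the 6 but Ddr2, against 8.04% of genes tested. The median log2 fold change of the 9 genes was 1.13, and that of all genes tested was 0.01. In bulk RNA a change in the number of cells of a type and a change in RNA per cell cannot be told apart, which holds for each result below.

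**Figure D1:**
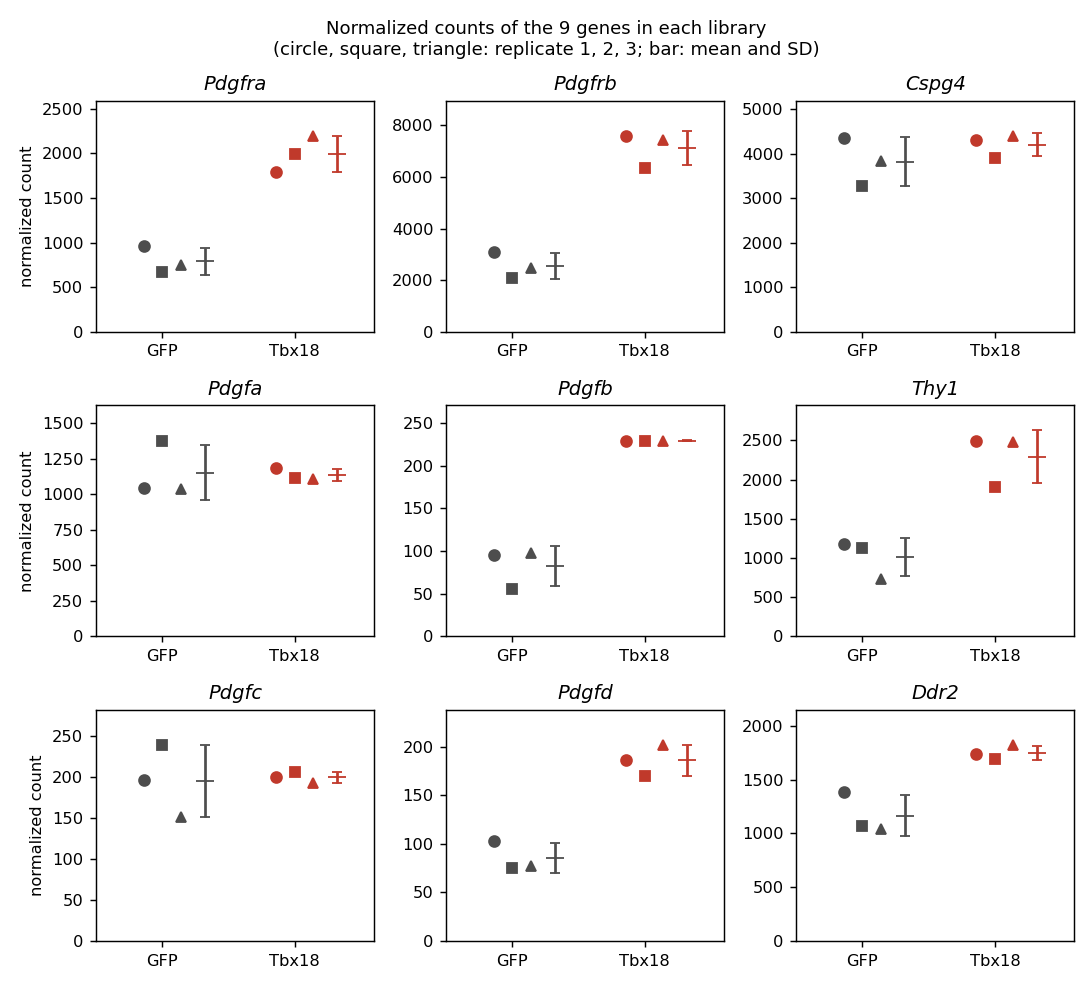
Normalized counts (y axis, each panel from 0) of the 9 genes in the 3 GFP (grey) and 3 Tbx18 (red) libraries; symbols mark the replicate and bars the mean and SD. The groups are apart for Pdgfra, Pdgfrb, Pdgfb, Pdgfd, Thy1 and Ddr2 and overlap for Pdgfa, Pdgfc and Cspg4.

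Both receptor genes rose, Pdgfrb 2.80-fold and Pdgfra 2.52-fold. For Pdgfrb the GFP libraries held 3097, 2093 and 2466 normalized counts, and the Tbx18 libraries held 7588, 6367 and 7445. The lowest Tbx18 library was far above the highest GFP library, and the GFP libraries differed 1.48-fold among themselves. The rise was 2.80-fold, from 2552 ± 507 to 7133 ± 667 (SD, n = 3), with a log2 fold change of 1.50, SE 0.14 and limma adjusted p = 3.98e-05. Pdgfra stood at 958, 666 and 749 normalized counts in GFP and at 1795, 1993 and 2194 in Tbx18. Again all Tbx18 libraries were higher, with the first GFP library the highest of its group. The means were 791 ± 151 and 1994 ± 199.7, a 2.52-fold rise, and on the log2 scale 1.34 with SE 0.14 (limma adjusted p = 6.71e-05). The 95% intervals of the log2 fold changes, 1.19 to 1.80 for Pdgfrb and 1.04 to 1.65 for Pdgfra, overlapped widely.

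The balance of the receptors was compared within libraries, where scaling between libraries has no part. The ratio of Pdgfrb to Pdgfra counts was 3.23, 3.14 and 3.29 in the GFP libraries and 4.23, 3.19 and 3.39 in the Tbx18 libraries. It was nearly constant in GFP, and in Tbx18 it stood apart in replicate 1 alone. On the log2 scale the ratio was 1.69 ± 0.033 in GFP and 1.84 ± 0.21 in Tbx18 (SD, n = 3), a difference of 0.15 with p = 0.3 in an exact two-sided permutation test, whose smallest possible p is 0.1. Without Tbx18 replicate 1 the difference was 0.03. This and the share of Pdgfc below were the 2 tests of makeup, both with an adjusted p of 0.4 (exact permutation test).

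The ligand genes split into 2 that rose and 2 that did not pass the test. Pdgfb, whose product binds both receptors, was at 94.7, 55.6 and 97.8 normalized counts in GFP and at 229, 228 and 229 in Tbx18. The Tbx18 libraries were close to identical, while in GFP replicate 2 was the low one, resting on 45 reads. The means were 82.7 ± 23.5 and 229 ± 0.38, a 2.77-fold rise, and on the log2 scale 1.50 with SE 0.21 (limma adjusted p = 0.000417). Without GFP replicate 2 the log2 value was 1.24. Pdgfd, a ligand mainly of the beta receptor, was at 103, 75.3 and 77.1 normalized counts in GFP and at 187, 170.1 and 202 in Tbx18. The groups were well apart, although no library held more than 230 reads of the gene. The means were 85.2 ± 15.6 and 186 ± 15.9, a 2.19-fold rise, and on the log2 scale 1.13 with SE 0.17 (limma adjusted p = 0.000579).

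Pdgfa, the classic ligand of the alpha receptor, was at 1043, 1378 and 1038 normalized counts in GFP and at 1182, 1118 and 1106 in Tbx18. GFP replicate 2 was above every other library and its 2 companions were below the Tbx18 libraries, so the groups overlapped. The log2 fold change was -0.01, with a 95% interval of -0.27 to 0.25 and limma adjusted p = 0.954. Pdgfc, a ligand mainly of the alpha receptor, was at 196, 238 and 151 normalized counts in GFP and at 199.7, 206 and 192 in Tbx18. The Tbx18 values lay inside the range of the GFP values. Its log2 fold change was 0.06, with an interval of -0.33 to 0.44 and limma adjusted p = 0.809. These intervals reach neither the lower bound of 1.02 for Pdgfb nor that of 0.75 for Pdgfd.

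The makeup of the ligand counts moved accordingly. Pdgfb made up 6.59, 3.18 and 7.17% of the summed counts of the 4 ligand genes in the GFP libraries and 12.7, 13.3 and 13.2% in the Tbx18 libraries. Pdgfd made up 4.31 to 7.19% in GFP and 9.88 to 11.7% in Tbx18, and Pdgfa 72.6 to 78.9% and 64.0 to 65.7%. For each of these 3 genes the groups did not overlap, but shares of the same sum are not independent of each other. The count of Pdgfa itself was not called. The share of Pdgfc was 12.8 ± 1.49% in GFP and 11.4 ± 0.49% in Tbx18, a difference of -1.38 percentage points with overlapping groups (p = 0.4, exact two-sided permutation test). These shares are not per transcript length, so they are compared between groups and not between genes. The summed ligand counts were 1364 to 1747 in GFP and 1722 to 1798 in Tbx18, which overlapped, while the summed receptor counts went from 2759 to 4055 in GFP to 8360 to 9639 in Tbx18.

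**Figure D2:**
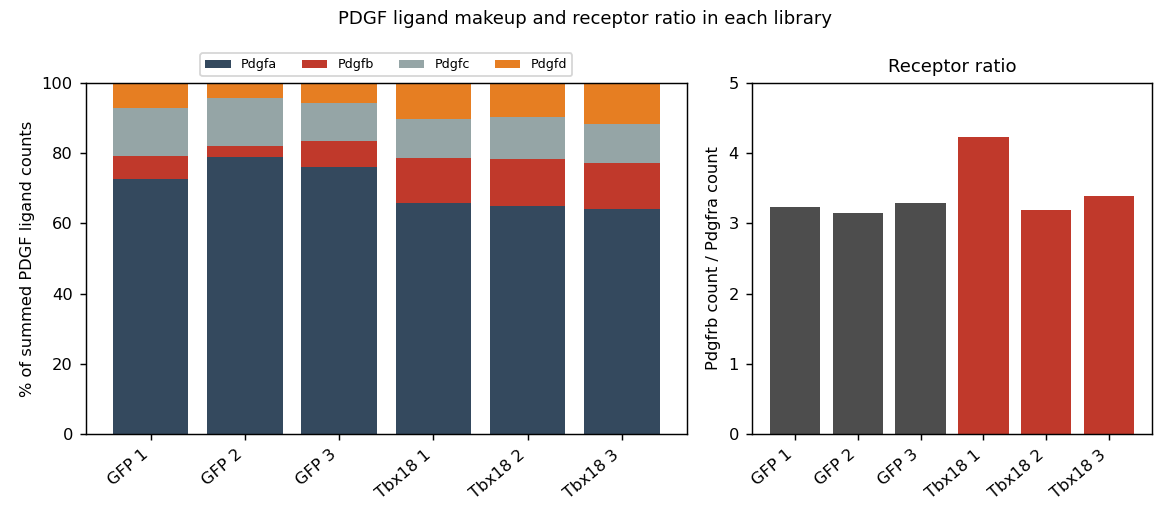
Left, the share (%) of each ligand gene in the summed PDGF ligand counts of a library; right, the ratio of Pdgfrb to Pdgfra counts in each library (GFP bars grey, Tbx18 bars red). Pdgfb takes 3.18 to 7.17% in GFP and 12.7 to 13.3% in Tbx18, and the ratio is 3.14 to 3.39 in every library but Tbx18 replicate 1, where it is 4.23.

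Of the 3 surface protein genes, Thy1 and Ddr2 rose and Cspg4 was not called. Thy1 was at 1183, 1121 and 731 normalized counts in GFP and at 2498, 1909 and 2478 in Tbx18. GFP replicate 3 and Tbx18 replicate 2 were the low libraries of their groups, and the groups did not overlap. Its mean went from 1012 ± 245 to 2295 ± 335, a 2.27-fold rise, and on the log2 scale 1.20 with SE 0.18 (limma adjusted p = 0.000555). Ddr2 was at 1383, 1071 and 1037 normalized counts in GFP and at 1734, 1692 and 1819.6 in Tbx18. The gap between the groups was smaller here, as GFP replicate 1 approached the Tbx18 libraries. Its mean went from 1163 ± 191 to 1748 ± 65.2, a 1.50-fold rise, and on the log2 scale 0.60 with SE 0.11 (limma adjusted p = 0.00218). Cspg4 was at 4362, 3274 and 3847 normalized counts in GFP and at 4314, 3914 and 4400.2 in Tbx18. GFP replicate 1 was as high as the Tbx18 libraries, and the log2 fold change of 0.15 had an interval of -0.10 to 0.39 (limma adjusted p = 0.303).

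These results were set against other scalings, since the summed normalized counts were 20141912 to 21563080 in GFP and 17273631 to 17494656 in Tbx18. When each library was instead given the same total of recovered reads, called equal recovered reads here, all genes tested had a median of 0.27 on the log2 scale, and 42.6% of genes were called higher and 12.0% lower. There Pdgfrb stood at 1.76, Pdgfra at 1.61, Pdgfb at 1.76, Pdgfd at 1.39, Thy1 at 1.47 and Ddr2 at 0.86, all above that median. Pdgfa stood at 0.25 and Pdgfc at 0.32, close to the median of all genes, and neither was called. Cspg4 was called under this scaling, at 0.41 with limma adjusted p = 0.0195, and after quantile normalization, at 0.36 with limma adjusted p = 0.0289, where 22.5% of genes were called higher. Over its 17 alternatives the adjusted p of Cspg4 ran from 0.0195 to 0.771.

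**Figure D3:**
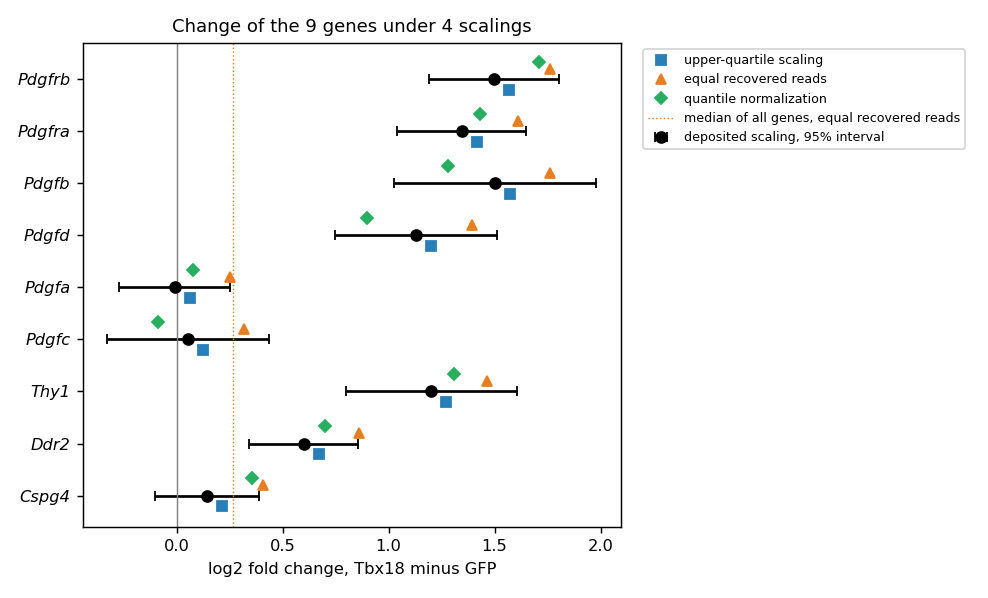
Log2 fold change (x axis, Tbx18 minus GFP) of the 9 genes with the deposited scaling (black, with 95% interval) and under 3 other scalings (coloured symbols); the dotted line marks the median of all genes with equal recovered reads. Pdgfrb, Pdgfra, Pdgfb, Pdgfd, Thy1 and Ddr2 lie above 0.5 under all 4, and Pdgfa and Pdgfc lie near 0 or near the dotted line.

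Genes listed for PDGF ligand handling, by binding, cutting or clearing PDGFs or by kinship to their receptors, were mostly higher. Of 11 tested, 8 rose and 2 fell, against 22.5% and 23.5% of all genes, with a median log2 fold change of 0.74. With equal recovered reads 9 rose and 1 fell, against 42.6% and 12.0% of all genes. Nrp2, encoding neuropilin 2, a co-receptor of semaphorins and VEGFs, rose 3.99-fold from 261 ± 55.3 to 1042 ± 224 normalized counts. Pdgfrl, which encodes a receptor-like protein with kinship to the PDGF receptors, was at 113, 143 and 96.7 normalized counts in GFP and 343, 337 and 373 in Tbx18, a 2.99-fold rise (limma adjusted p = 6.38e-05). Lrp1, encoding an endocytic receptor that interacts with the beta receptor, rose 1.90-fold. The gene that fell most was Pcsk6, which encodes a proprotein convertase, from 3115 ± 774 to 834 ± 50.3 normalized counts (log2 fold change -1.87, limma adjusted p = 1.99e-05). Among proteases that activate the latent ligands, Plat, encoding tissue plasminogen activator, which cuts PDGF-C, rose by 0.45, and Plau, encoding urokinase, which cuts PDGF-D, by 0.78 on the log2 scale. St14, another gene of this list, rose more, by 1.83, at lower counts of 30.9 ± 3.21 in GFP and 113 ± 14.9 in Tbx18.

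Among signalling proteins that dock on the receptors, 24 genes for adaptors, kinases and phosphatases were tested. Of these 3 rose, 8 fell and 13 were not called, with a median log2 fold change of -0.10, and the 11 called are close to the share of 46.0% among all genes. Scaled to equal recovered reads, 9 were higher and 2 lower, where 42.6% and 12.0% of all genes were, so this list stayed near the background under both scalings. Src, a kinase recruited by the receptors, rose 1.85-fold from 370.1 ± 22.6 to 686 ± 64.3 normalized counts, and Pik3r2, a regulatory subunit of phosphoinositide 3-kinase, 1.51-fold. Fyn, a kinase kin to Src, fell 1.49-fold and Gab1, a docking protein, 1.52-fold, with limma adjusted p-values of 0.000772 and 0.00136.

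Genes long known to be induced in fibroblasts by PDGF did not follow the receptors. Of 14 tested, 0 were called higher and 9 lower, against 22.5% and 23.5% of all genes. At an unadjusted p under 0.05 limma also gave 0 higher and 9 lower, and edgeR called 0 and 9 and DESeq2 0 and 8. Fos, an immediate early gene, was at 399, 2143 and 3362 normalized counts in GFP and at 199, 197 and 226 in Tbx18. The GFP libraries spread over a wide range, all above Tbx18, and the log2 fold change was -2.78 (SE 0.61, limma adjusted p = 0.00475). Leaving out GFP replicate 1 gave -3.69 and leaving out GFP replicate 3 gave -2.15. Dusp6, a phosphatase gene induced by ERK signalling, fell 2.12-fold from 1890 ± 367 to 890 ± 50.1 normalized counts, Fosl1, a partner of Jun proteins, 2.03-fold, and Ier3, an immediate early gene, 1.98-fold. The list is not specific to PDGF, as serum and many other growth factors induce these genes. Srf, the serum response factor gene, and Ccl2, a chemokine gene, were called higher with equal recovered reads. There 8 members of the list were lower, against 42.6% of all genes higher and 12.0% lower. Srf was also called higher after quantile normalization and without GFP replicate 1, and Ccl2 without GFP replicate 2.

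The nearest kin of the PDGF system, the VEGF ligands and receptors and the other class III receptor kinases, went mainly the other way. Of 10 tested genes, 2 rose and 7 fell, against 22.5% and 23.5% of all genes, with a median log2 fold change of -0.58. With equal recovered reads 2 rose and 4 fell, against 42.6% and 12.0% of all genes. Vegfa, the main endothelial growth factor gene, fell 3.32-fold from 40209 ± 3792 to 12112 ± 1901 normalized counts. Flt4, the receptor gene of lymphatic endothelium, fell 2.74-fold and Pgf, placental growth factor, 2.03-fold. Vegfc, a lymphatic growth factor gene, rose 1.79-fold from 245 ± 7.51 to 438 ± 27.4.

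Among ligands, partners and kin of NG2, Thy-1 and Ddr2, 7 of 14 tested genes rose and 1 fell, against 22.5% and 23.5% of all genes. The median log2 fold change was 0.83. With equal recovered reads 10 rose and 1 fell, against 42.6% and 12.0% of all genes. Col3a1, a fibrillar collagen and so a ligand of Ddr2, rose by 1.62 on the log2 scale, and Col6a2, a collagen VI chain and partner of NG2, by 1.01. Mmp14, a membrane-bound metalloproteinase, rose 3.04-fold from 2250 ± 204 to 6832 ± 589 normalized counts, and Mmp2, a gelatinase that Mmp14 activates, 1.99-fold. Ddr1, the sister of Ddr2, was at 2626 ± 492 and 2556 ± 297 normalized counts and was not called. The 7 that rose were all collagen or metalloproteinase genes. The gene that fell was Itga5, an integrin gene, at -0.85 on the log2 scale. The other integrin genes tested, Itgb3 and Itgb5, and the galectin gene Lgals3 were not called.

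**Figure D4:**
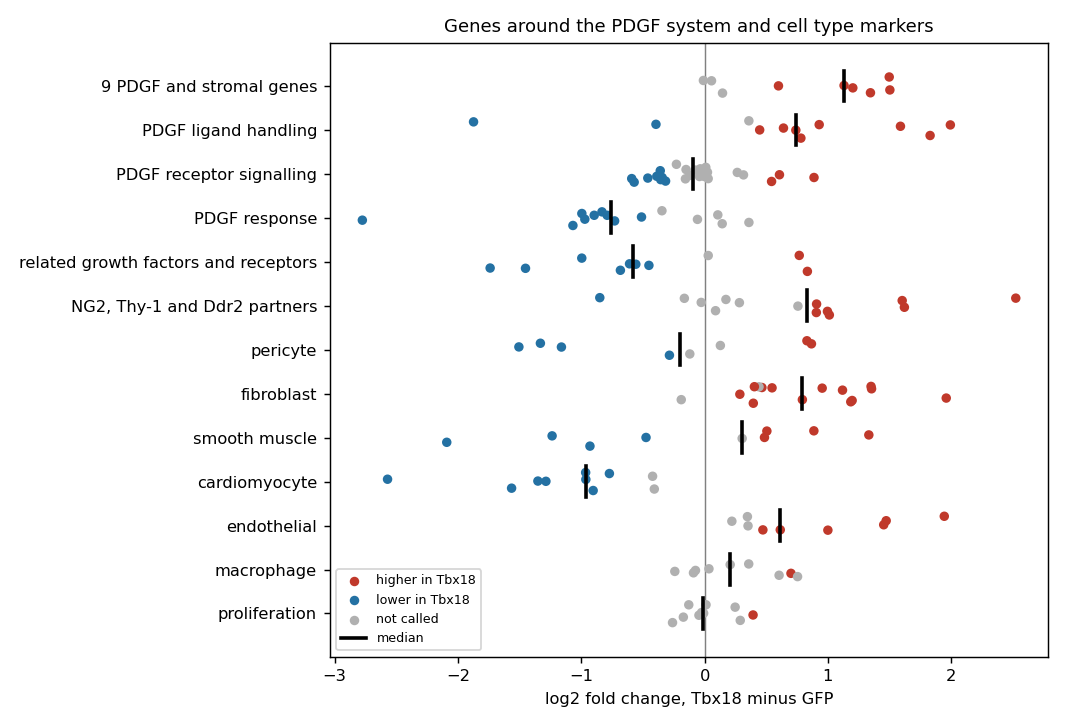
Log2 fold change (x axis, Tbx18 minus GFP) of the 9 genes and of each tested gene of 12 lists; red points were called higher, blue lower and grey not, and black bars mark medians. The 9 genes have a median of 1.13 and the PDGF response list one of -0.76.

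As a check of the label, other pericyte markers did not rise as a group. Of 11 in the table, 8 were tested, 2 rose and 4 fell, against 22.5% and 23.5% of all genes. The median log2 fold change was -0.20. Scaled to equal recovered reads it was 0.06, where the median of all genes was 0.27. There 3 were higher and 3 lower, against 42.6% and 12.0% of all genes. The higher calls were thus near the share among all genes under both scalings, and the lower calls were above it under both. Rgs5, a regulator of G protein signalling and a standard pericyte marker, rose from 194 ± 47.8 to 339 ± 30.1 normalized counts, and Notch3, a receptor of mural cells, 1.78-fold. Abcc9, Des and Ndufa4l2 fell 2.86-fold, 2.53-fold and 2.18-fold, and Abcc9 and Des are also genes of heart muscle. Cd248, which encodes endosialin, had 0 reads in all 6 libraries, and a count of 0 allows up to 3 reads. The annotation behind the counts is not known, and Col1a2 was at only 12.6 ± 8.96 and 17.96 ± 8.12 normalized counts where its partner chain Col1a1 was at 198103 ± 18663 and 371165 ± 34640, so the 0 of Cd248 is not read as absence. The summed counts of the list were 100391 to 133275 in GFP and 49407 to 54975 in Tbx18, most of them from Des. The 9 genes are therefore described by name and not as a measure of pericytes.

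Markers of fibroblasts moved with the genes that rose. Of 15 tested, 13 rose and 0 fell by limma, edgeR and DESeq2 alike (1 was lower at an unadjusted limma p under 0.05), with a median log2 fold change of 0.79, and their summed counts were 133845 to 164563 in GFP and 200761 to 226373 in Tbx18. Tcf21, a transcription factor of fibroblast precursors, rose 3.85-fold, Col8a1, a short-chain collagen, 2.54-fold, Postn, periostin, 2.52-fold and Cthrc1, a matrix protein, 2.30-fold. Pdgfra and Pdgfrb, with log2 fold changes of 1.34 and 1.50, lay above the median of this list. Its tested genes ran from -0.19 to 1.96, with Postn and Col8a1, each at 1.35, near the top. Smooth muscle markers split, with 4 of 9 higher, among them Lmod1, a leiomodin, by 1.33, and 4 lower, among them Pln, Myocd and Cnn1, at log2 fold changes of -2.09, -1.24 and -0.93. Pln and Myocd are also active in heart muscle. Of 9 endothelial markers 6 rose and 0 fell by limma, edgeR and DESeq2 alike, with 7 and 0 at an unadjusted limma p under 0.05. Over the alternatives 4 to 7 were called higher, with 4 without the trend or without Tbx18 replicate 3. In these 2 settings 2421 of 11230 and 1906 of 11192 genes were called higher. Tek, the angiopoietin receptor gene, rose 2.69-fold, and the list had summed counts of 1011 to 1722 in GFP and 2196 to 2217 in Tbx18. The VEGF receptor genes, counted with the kin above, did not rise. Kdr and Flt4 were lower, at log2 fold changes of -0.56 and -1.45, and Flt1, at 0.03, was not called. Of 10 heart muscle markers 8 fell and 0 rose by limma (0 rose and 10 fell at an unadjusted p under 0.05, and edgeR called 9 and DESeq2 10 lower and neither any higher), with Myh7, Actc1, Tnnt2 and Mybpc3 lower by 2.44-fold to 5.94-fold and summed counts of 1405356 to 1534222 in GFP and 622714 to 641786 in Tbx18. Beside these marker lists, limma called 22.5% of all genes higher and 23.5% lower. With equal recovered reads 42.6% and 12.0% of all genes were called higher and lower. There fibroblast markers had 13 higher and 0 lower, smooth muscle 5 and 3, endothelial 7 and 0, and heart muscle 0 and 8. The part of cell makeup in the changes of the 9 genes was not tested.

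Within the GFP group the 9 genes did not vary alike. GFP replicate 1 was the highest of its group for 6 of the 9 genes, all but Pdgfa, Pdgfb and Pdgfc, and GFP replicate 2 was the lowest for 5 of the 9. Pdgfa and Pdgfc were instead highest in GFP replicate 2, by 0.27 and 0.31 on the log2 scale above their group means, where Pdgfrb was 0.27 below its own. Pdgfb was lowest there, by -0.52. Macrophage markers deviated in the same library by a median of 0.49 and heart muscle markers by 0.08. Endothelial markers deviated there by -0.37, proliferation genes by -0.20 and fibroblast markers by -0.01. Among the Tbx18 libraries replicate 2 was the lowest for 6 of the 9 genes, with the widest deviation in Thy1, at -0.25. Whether these deviations share a source was not tested.

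**Figure D5:**
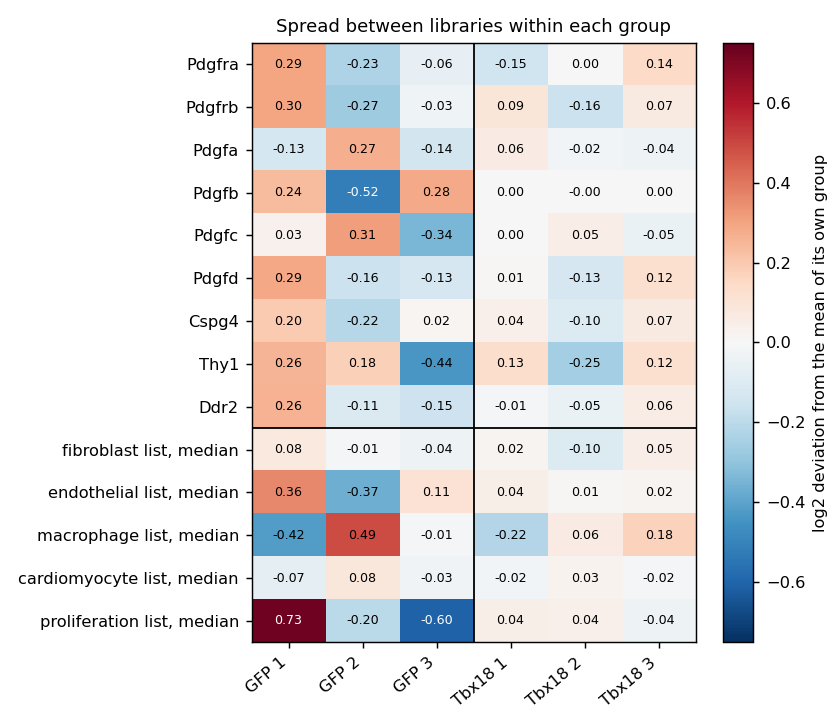
Log2 deviation of each library (columns) from the mean of its own group, for the 9 genes and, below the line, the median of 5 marker lists. GFP replicate 2 is low for Pdgfb, at -0.52, and high for Pdgfa and Pdgfc, at 0.27 and 0.31, and the Tbx18 libraries lie closer together.

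The genes most like each of the 9 were found by the Euclidean distance of centred log2 profiles over the 6 libraries, among 9220 other genes that averaged 100 or more normalized counts. Nearest to Pdgfra were Mboat1, at a distance of 0.142, Creb3l1, at 0.145, and Il1r1, at 0.218. Nearest to Pdgfrb were Myo1d, an unconventional myosin gene, at 0.138, Mylk, the myosin light chain kinase gene of smooth muscle, at 0.206, and Madd at 0.212. For Pdgfb they were Bmper, at 0.226, Nfatc1, at 0.299, and Olfml3, at 0.304. For Pdgfd they were Sept9, at 0.103, Man2a1, at 0.146, and Mst1r, at 0.151. Thy1 lay nearest to Col14a1, a fibril-associated collagen gene, at 0.147, then Aoc3, at 0.234, and Lmod1, at 0.243, and Ddr2 nearest to Coro1c, at 0.0589, Iqgap1, at 0.0740, and Tmem198b, at 0.104. Pdgfa lay nearest to Tmem176b, Eif1a and Prkrip1, Pdgfc to Hpdl, Ostc and Pdlim1, and Cspg4 to Ncoa6, Arel1 and Eif4ebp2, at distances from 0.0646 to 0.173. These neighbours depend on single libraries: of the 27, between 7 and 19 were again among the nearest 3 when 1 library was left out, with 7 without GFP replicate 2.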

How the data were processed

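RNA of 6 cultures was read as stranded mRNA libraries, per the labels' protocols. Tools listed in the submitters' processing notes, without roles, are DESeq2 1.10.1, HTSeq, STAR 2.4.0g1 and bcl2fastq 2.17.1.14. No source used here gives the build, annotation or strand setting of the counting, so genes with near copies or antisense partners are less certain. The deposited signal is, per the labels, DESeq2-normalized counts, that is, gene counts divided by a size factor per library. Of the values, 100% were whole multiples of a column's smallest value above 0 within 0.01, so reads were recovered, on which edgeR called 5206 genes and DESeq2 5096.

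Genes averaging 10 or more were tested with limma-trend (limma 3.58.1, R 4.3.3) on log2(value + 1), without a block. It was tested on simulated data. Exact permutation tests used scipy 1.17.1. Alternatives were other pseudocounts, filters and scalings, no trend, edgeR 4.0.16, DESeq2 1.42.0, a replicate block and leaving out each library.

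The members and lists were chosen with earlier results of these data known. Of 168 symbols in 13 lists, 158 matched. Named were the 9 genes, Tbx18, the 4 largest called changes with a mean of at least 100 per list, and the 3 nearest genes. Plat, Plau, St14, Kdr, Flt1, Ddr1, Itga5, Itgb3, Itgb5, Lgals3, Rgs5, Cd248, Col1a1, Col1a2, Srf, Ccl2, Mki67, Gfap, S100b and Olig1 were named after their values were seen. RefSeq promoters matched 6 of 9 genes. Coordinates are given only for the RefSeq sequences.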

Additional observations from a re-analysis of the deposited data

How the results depend on the processing

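The calls of Pdgfra, Pdgfrb, Pdgfb, Pdgfd, Thy1 and Ddr2 held in each of 17 alternatives, including edgeR and DESeq2 on recovered reads, with log2 fold changes of 1.23 to 1.61, 1.36 to 1.76, 1.24 to 1.76, 0.90 to 1.39, 0.98 to 1.47 and 0.52 to 0.86. Of the 9 genes, 6 or 7 were higher and 0 lower throughout. Pdgfa and Pdgfc were called in none, and their signs were not stable. Pdgfa was 0.25 with equal recovered reads, 0.0759 after quantile normalization, 0.0612 with upper-quartile scaling and -0.079 to 0.13 with 1 library left out, the highest without GFP replicate 2. Pdgfc was -0.0884 after quantile normalization and -0.12 to 0.21 with 1 library left out. Over all genes 2525 were called higher and 2639 lower, but 4777 and 1350 with equal recovered reads, where the median of all genes moved too. The ratio of Pdgfrb to Pdgfra differed by 0.03 to 0.23 with 1 library left out, lowest without Tbx18 replicate 1, and the share of Pdgfc by -2.24 to -0.95 percentage points, the widest without GFP replicate 3.

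The replicate block changed no call of the 9 genes, with 5155 genes called against 5164. The mean paired difference of the receptor ratio, 0.15, equals the unpaired difference by arithmetic and is no separate check. Same-numbered libraries had correlations of deviations of -0.00474, 0.151 and 0.0165, and the other pairs had -0.137 to 0.113. Deviations from a mean of so few libraries are tied to each other. These values therefore cannot decide whether the numbers pair the samples. Of the called list genes named in the text, Tie1 lost its call in 7 of 17 alternatives and Cd68 and Mcm2 in 6 each. Cdh5 lost it in 2, Gfap in 1 and S100b in 5 of 16. Kdr, St14 and Itga5 were not followed singly over the alternatives, and the others kept their calls in those run. The cause was not tested. Of the uncalled ones, Ddr1 was 0.237 with equal recovered reads, 0.133 after quantile normalization, 0.0436 with upper-quartile scaling and -0.182 to 0.0928 with 1 library left out. Mki67 was 0.218, 0.12, 0.025 and -0.346 to 0.403 in the same order, and it was called higher without GFP replicate 1. Col1a2 was -0.11 after quantile normalization and -0.0789 to 1.20 with 1 library left out. Few reads limit Pdgfb and Pdgfd most.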

Other observations

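Markers of cycling cells, macrophages and glia were looked at because PDGF is a mitogen and because glial precursors also use Pdgfra and Cspg4. Of 10 proliferation genes 1 was called higher, Mcm2, a subunit of the replicative helicase, by 0.39, a call lost when any library but GFP replicate 1 was left out, and the list's median was -0.02. Without GFP replicate 1, 5 of the 10 were called higher, where 2900 of 11269 genes were. Without GFP replicate 3, 0 were higher and 2 lower, where 2316 and 2382 of 11274 genes were. The summed counts of the list were 27558, 14669 and 11612 in the GFP libraries, and 15975 to 16713 in Tbx18. The highest GFP sum was in the library that was also highest for Pdgfra and Pdgfrb. Mki67, a marker of cycling cells, was at 5608, 2448 and 1984 normalized counts in GFP and at 2783 to 2998 in Tbx18.

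Of 9 macrophage and leukocyte genes 1 was called higher, Cd68, by 0.70, a call lost without GFP replicate 1 (limma adjusted p = 0.0673; range over its alternatives 0.00631 to 0.123), and likewise when the third GFP library, or replicate 2 or 3 of Tbx18, was left out. With equal recovered reads 4 were called higher, as were 4 without GFP replicate 2, and 0 after quantile normalization. Without GFP replicate 2, 2363 of 11263 genes were called higher, and after quantile normalization 22.5% of all genes were. Glial genes were few: 3 of 7 were tested, 2 were higher, Gfap and S100b, at 37.3 and 68.9 and at 11.6 and 24.9 mean normalized counts in GFP and Tbx18, and Olig1 had 0 reads in all libraries. After quantile normalization neither was called, and the S100b call was also lost with DESeq2 (adjusted p = 0.053) and when any 1 Tbx18 library was left out (limma adjusted p = 0.0505 to 0.0939). Of endothelial genes Cdh5, Egfl7 and Tie1 were higher by 1.00, 0.61 and 0.47, and the Tie1 call was lost without GFP replicate 2 (limma adjusted p = 0.0971; range over its alternatives 0.00742 to 0.126) and without any 1 of the Tbx18 libraries. The Cdh5 call was lost without Tbx18 replicate 3 (limma adjusted p = 0.0968). Of all genes 22.5% were called higher and 23.5% lower, and 42.6% and 12.0% with equal recovered reads. What these values mean for the PDGF genes was not tested.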
